A study of Homo sapiens with 12 samples.

Results

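The response of 2 ovarian cancer cell lines to a low dose of THZ1 was compared gene by gene. The measure was the difference of differences: the change with 50 nM THZ1 against DMSO in COV362 (Cov) cells less the same change in KURAMOCHI (Ku) cells, each change being a difference of mean log2(FPKM + 1). A negative value means that the RNA fell more, or rose less, in Cov cells. The comparison used 8 of the 12 libraries of the study, 2 replicates of each line with each treatment, and all 23621 gene rows that both tables share, of which 14251 were active, meaning that 1 or more of the 12 libraries exceeded an FPKM of 1. FPKM scale the fragments of a gene by its transcript length and by the size of the library. Both lines were untransduced controls and were harvested after 6 hr, Ku cells from RPMI and Cov cells from DMEM medium, so line and medium cannot be told apart. The other 4 libraries, treated with 250 nM THZ1, entered the fit to estimate the spread between replicates, and their values are given only side by side with those of the low dose.

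THZ1 is a covalent inhibitor of CDK7, the kinase of the CDK-activating complex and of the general transcription factor TFIIH, and at higher doses it also reaches CDK12 and CDK13. These kinases phosphorylate the carboxyl-terminal domain of RNA polymerase II, a step in starting, pausing and elongating transcripts. Because mature RNA disappears at its own rate once synthesis is blocked, short-lived RNAs such as those of immediate early genes drop soonest, and long-lived RNAs such as those of ribosomal proteins drop late.

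The values were taken on 2 scales. On the deposited scale the FPKM were used as the authors had normalized them to ERCC spike-in RNAs, synthetic transcripts added to RNA that had been scaled by cell count. Each line is a table of its own that was normalized separately. On the centred scale the median change of each line over active genes was therefore subtracted first, so that a gene is compared with the other genes of its own line. The median ERCC RNA lay between -0.0051 and 0.0451 log2 units from its DMSO level in the 50 nM libraries. A median near 0 follows from the normalization to these RNAs and is no separate check. The SD over ERCC RNAs in those libraries was 0.186 to 0.291 log2 units. Replicates of the 8 libraries correlated with Pearson's r of 0.968 to 0.980 across active genes. The labels name no batch, and the depth of the libraries is unknown, since the tables hold no counts. PAX8 and SOX17, transcription factors of the serous lineage, were at 113 to 146 FPKM in the DMSO libraries of both lines, while WT1 stood at 60.1 and 53.4 FPKM in Ku and 0.565 and 0.741 FPKM in Cov cells, and PTPRC and CD3E, markers of leukocytes, were at most at 0.299 FPKM in any library. CD14, a monocyte marker, was at 1.19 to 1.63 FPKM in the Ku DMSO and 50 nM libraries. In Cov cells it was at most at 0.778 FPKM. Of the markers of fibroblasts and endothelium, COL3A1 was at 9.43 and 7.74 FPKM in Ku DMSO and 0.612 and 0.715 in Cov DMSO libraries. VWF was at 2.97 and 2.36 against 0.631 and 0.569 FPKM, COL1A1 at 2.59 and 2.46 against 3.13 and 3.20 FPKM. PECAM1 and DCN were at most at 0.378 FPKM in any library. EPCAM, an epithelial marker, was at 4.01 and 4.24 FPKM in Ku and 150 and 174 in Cov DMSO libraries. KRT7 was at 4.68 and 4.54 against 1287 and 1423 FPKM. The part of these markers in the results was not tested.

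RNA fell further in Cov cells for most genes. The median change with 50 nM THZ1 was -0.40 in Ku cells, and ranged between -0.53 and -0.27 when each treated library was set against each DMSO library (4 pairs). The Cov median was -0.85, between -0.96 and -0.75 over pairs. The ranges did not overlap. The difference was below 0 for 12200 genes (85.6%), with a median of -0.43 that ranged from -0.67 to -0.19 over the 16 combinations of pairs. Under the thresholds of the study (limma, adjusted p under 0.001 and a log2 change beyond 0.5), 1607 genes (11.3%) fell and 12 (0.0842%) rose in Ku cells, against 10042 (70.5%) and 11 (0.0772%) in Cov cells. At 250 nM, the median changes were -1.11 in Ku and -1.31 in Cov cells. The lines therefore lay further apart in their medians at the low than at the high dose in these libraries, a difference between doses that was not tested.

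**Figure D1:**
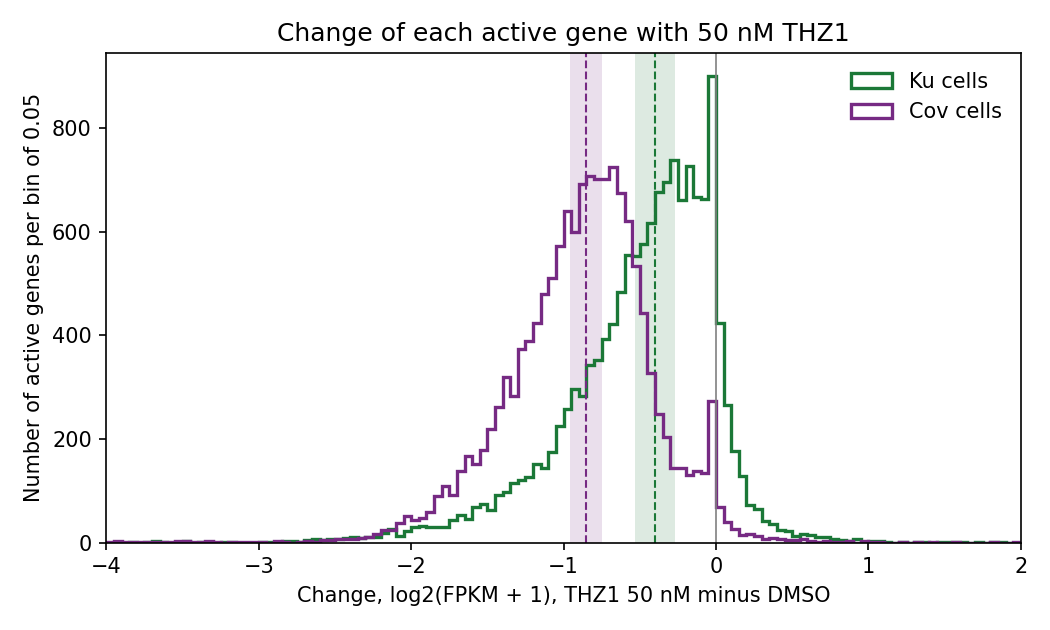
Number of active genes (y axis, bins of 0.05) by change in log2(FPKM + 1) with 50 nM THZ1 (x axis) in Ku (green) and Cov (purple) cells. Dashed lines mark the median changes, -0.40 and -0.85, and shaded bands their range over the 4 pairs of libraries of each line, which do not overlap. The axis leaves out 82 genes in Ku and 61 in Cov cells.

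The tests of the difference itself followed this shift. On the deposited scale, limma called 5524 genes (38.8%) lower and 337 genes (2.36%) higher in Cov than in Ku cells at an adjusted p under 0.05 and a difference beyond 0.5. After centring, 481 genes (3.38%) were lower and 1155 genes (8.1%) higher. All 481 were also called lower on the deposited scale, and 334 of the 1155 were also called higher there, whereas none was called in opposite directions. The shift common to all genes belongs to whole libraries, so the deposited-scale calls are not independent of each other. The split between directions turned with the scaling: with libraries of each line scaled to equal median FPKM, 419 genes were lower and 610 higher without further centring, and with median-of-ratios scaling 496 and 685. The centred counts were 131 lower and 429 higher with a pseudocount of 0.1. In a fit of only the 8 DMSO and 50 nM libraries they were 285 and 860. The number of lower genes on the deposited scale was 3629 without replicate 2 of Cov DMSO. On the centred scale it was 275 without that library, 285 without replicate 1 of Cov DMSO and 283 without replicate 2 of Ku THZ1 50 nM, and the number of higher genes was 712 without replicate 2 of Cov DMSO.

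Many of the called genes had little RNA in one of the lines. Of the 481 genes lower in Cov cells on the centred scale, 218 had a mean below 1 FPKM over the DMSO and 50 nM libraries of Ku cells, and of the 1155 higher genes 551 were below 1 FPKM in Cov cells. A gene near 0 cannot fall on the log2(FPKM + 1) scale, and centring then moves it up by the median fall of its line. Among the 8247 genes with a mean above 5 FPKM in each line, 173 were lower and 309 higher on the centred scale. When the fit and the centring were limited to those genes, a choice made after the data were seen, the counts were 58 and 269. The leading genes below were chosen from the 8247, and for several gene groups both counts are given. Where a call was lost in a fit that left out 1 library, the libraries are named by line, treatment and replicate number. With a pseudocount of 0.1 in place of 1, the centred calls of 51 named genes were lost, which include those of BTG2, KLF15, BIRC3, FANCF, SLX4, XAF1 and CCNH and most of those that depended on a single library.

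**Figure D2:**
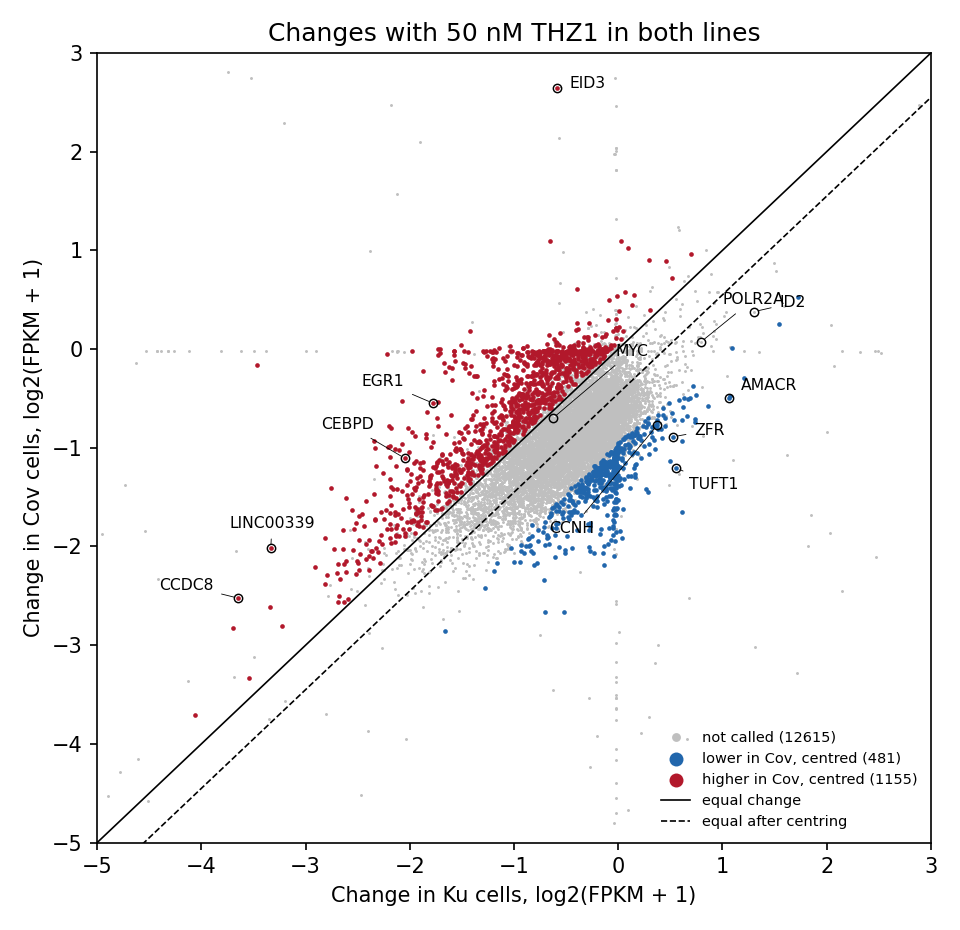
Change with 50 nM THZ1 in Ku cells (x axis) and Cov cells (y axis), both in log2(FPKM + 1), for each active gene, with genes called lower in Cov cells after centring in blue (481), higher in red (1155) and not called in grey. The solid line marks equal change and the dashed line equal change after centring, which lies lower by the 0.45 between the medians; 69 genes lie outside the square.

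The kinases that THZ1 binds, and their partners, were each lower in Cov cells on the deposited scale. All 6 members of the list were called, where 38.8% of all active genes were, with a median change of -0.16 in Ku and -0.88 in Cov cells beside -0.40 and -0.85 over all active genes. CDK7 was at 26.3 and 19.5 FPKM with DMSO and 16.8 and 13.98 FPKM with 50 nM THZ1 in Ku cells, and at 44.7 and 47.4 against 17.6 and 20.7 FPKM in Cov cells (difference -0.70, SE 0.20, adjusted p = 0.0185). CDK12, which sustains elongation over long genes, was at 21.7 and 17.2 FPKM with DMSO and 16.3 and 14.1 FPKM with 50 nM THZ1 in Ku cells, and at 18.1 and 19.9 against 7.98 and 9.23 FPKM in Cov cells (difference -0.73), and its relative CDK13 had a difference of -0.72. The treated and DMSO libraries did not overlap in either line for these kinases, and the gap was wider in Cov cells. CCNH, the cyclin partner of CDK7, was the only member called after centring. It stood at 29.3 and 24.1 FPKM with DMSO and 37.2 and 32.6 FPKM with 50 nM THZ1 in Ku cells, and at 27.7 and 28.7 against 15.2 and 17.1 FPKM in Cov cells (centred difference -0.69, SE 0.17, adjusted p = 0.0270). The treated Ku libraries were thus above both of their DMSO libraries and the treated Cov libraries below both of theirs. That call was lost in 4 of the 12 fits that each left out 1 library (without replicate 1 of Ku THZ1 50 nM, of Cov DMSO or of Cov THZ1 50 nM, or replicate 2 of Cov DMSO), with differences of -0.75 to -0.64 over the 12. At 250 nM the changes of CCNH were -0.61 in Ku and -1.51 in Cov cells.

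MYC, the oncogene the study centres on, was not called in the difference. It was measured at 82.5 and 73.9 FPKM with DMSO and 51.2 and 49.2 FPKM with 50 nM THZ1 in Ku cells, and at 165 and 180.3 against 105 and 107 FPKM in Cov cells, changes of -0.63 and -0.70. The difference of -0.07 (SE 0.11) did not pass the test (limma adjusted p = 0.576), and after centring it was 0.38 (adjusted p = 0.0486), short of 0.5. The fall of MYC passed the thresholds in Cov cells and not in Ku cells. At 250 nM the changes were -4.23 in Ku and -1.96 in Cov cells. MCL1, which encodes an anti-apoptotic protein of the BCL2 family, was lower in Cov cells at the low dose, at 142 and 124 FPKM with DMSO and 106 and 92.6 FPKM with 50 nM THZ1 in Ku cells, and at 171 and 196 against 72.4 and 86.3 FPKM in Cov cells (difference -0.79, SE 0.29, adjusted p = 0.0451). Its centred difference was -0.34 (adjusted p = 0.503), and at 250 nM its changes were -3.21 and -2.11. MAX, the dimerization partner of MYC, was also lower in Cov cells on the deposited scale (difference -0.60, adjusted p = 0.00578). PVT1, a long noncoding RNA gene next to MYC, was not called (22.2 and 17.7 FPKM with DMSO and 16.1 and 14 FPKM with 50 nM THZ1 in Ku cells, and at 15.3 and 15.4 against 9.79 and 9.23 FPKM in Cov cells, difference -0.26, adjusted p = 0.263).

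The homologous recombination gene BRCA1 fell in both lines, from 16.9 and 14.4 to 4.12 and 3.56 FPKM in Ku cells and from 21.3 and 23.7 to 6.36 and 7.25 FPKM in Cov cells. Its changes of -1.78 and -1.59 made it higher in Cov cells on the centred scale (centred difference 0.64, SE 0.15, adjusted p = 0.0247) though not on the deposited scale, where the difference was 0.19. The centred call was lost without replicate 2 of Ku THZ1 50 nM, either Cov DMSO library or replicate 2 of Cov THZ1 50 nM, with differences of 0.60 to 0.68 over the 12 fits. BRCA2 was at 3.69 and 2.94 FPKM with DMSO and 1.496 and 1.25 FPKM with 50 nM THZ1 in Ku cells, and at 4.17 and 4.81 against 0.860 and 1.41 FPKM in Cov cells, with a difference of -0.51 that was not called (adjusted p = 0.0644).

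Other lists of the transcription machinery were tested as well, beside the 38.8% of all active genes called lower on the deposited scale. Among 10 further transcriptional kinases and cyclins, 3 were lower on that scale, and limma called none after centring (3 had an unadjusted p under 0.05). For 12 RNA polymerase II subunits the numbers were 6 and none (2 unadjusted), and for 30 Mediator subunits 15 and none (7 unadjusted). POLR2A encodes the subunit that carries the phosphorylated domain. It rose in Ku cells, 133 and 118 FPKM with DMSO against 223 and 215 FPKM, while Cov cells had 54.1 and 60.0 against 61.4 and 58.9 FPKM (difference -0.72, SE 0.13, adjusted p = 0.00316). After centring the difference was -0.27 (adjusted p = 0.222). In the 7SK complex none of 4 members was lower on the deposited scale by limma, and 1 was higher after centring, with a median difference of 0.01 beside -0.43 over all active genes (2 higher after centring at an unadjusted p under 0.05). The called member was HEXIM1, an inhibitor of the elongation kinase P-TEFb, which was higher in Cov cells on the centred scale, at 26.5 and 25.1 FPKM with DMSO and 16.1 and 15.1 FPKM with 50 nM THZ1 in Ku cells, and at 19.3 and 20.3 against 15.6 and 16.8 FPKM in Cov cells (centred difference 0.87, SE 0.15, adjusted p = 0.00520). MEPCE, which caps the 7SK RNA, went from 68.2 and 61.8 to 16.9 and 14.3 FPKM in Ku cells and from 101 and 109 to 24.6 and 24.0 FPKM in Cov cells and was not called in the difference (centred 0.38, adjusted p = 0.308).

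Genes with the most negative centred difference, chosen by rule from the 8247, were often level or higher with THZ1 in Ku cells. TUFT1 (chr1:151512781-151556059 of GRCh37, plus strand), the gene of tuftelin, was measured at 22.9 and 17.0 FPKM with DMSO and 30.4 and 28.7 FPKM with 50 nM THZ1 in Ku cells, and at 49.6 and 56.5 against 21.3 and 23.6 FPKM in Cov cells. All 4 pairs of Ku libraries gave a positive change and all 4 pairs of Cov libraries a negative one (centred difference -1.31, SE 0.19, adjusted p = 0.00223). The peroxisomal racemase gene AMACR (chr5:33986270-34008209, minus strand) had 3.64 and 4.36 FPKM with DMSO against 9.72 and 9.07 FPKM with THZ1 in Ku cells, and 8.69 and 8.98 against 6.02 and 5.92 FPKM in Cov cells (centred difference -1.10, SE 0.18, adjusted p = 0.00479). ZFR (chr5:32354456-32444846, minus strand), which encodes a zinc finger RNA-binding protein, was higher in both treated than in both DMSO libraries of Ku cells and lower in Cov cells, from 74.1 and 67.0 to 108 and 96.9 FPKM in Ku cells and from 62.1 and 69.4 to 32.3 and 37.9 FPKM in Cov cells (centred difference -0.97, SE 0.15, adjusted p = 0.00337). At 250 nM the changes of these genes were negative in both lines, -0.85 in Ku and -2.10 in Cov cells for TUFT1, -1.21 and -2.28 for AMACR, and -0.68 and -1.91 for ZFR. Under the thresholds of the study, none of the 50 nM rises in Ku cells was called (limma adjusted p = 0.0222, 0.00295 and 0.00291). In Cov cells the fall of AMACR was not called either (limma adjusted p = 0.00371).

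Other leading genes fell in Cov cells and were likewise not called in Ku cells. SLC20A1 (chr2:113403516-113421402, plus strand), a sodium-dependent phosphate transporter, had 60.4 and 53.2 FPKM with DMSO and 54.3 and 51.1 FPKM with THZ1 in Ku cells, and 126 and 141 against 42.6 and 47.8 FPKM in Cov cells (centred difference -0.98, SE 0.13, adjusted p = 0.00161). P4HA2 (chr5:131525840-131631008, minus strand), a prolyl hydroxylase subunit for collagen, was at 24.3 and 21.1 FPKM with DMSO and 26.2 and 24.8 FPKM with 50 nM THZ1 in Ku cells, and at 10.9 and 10.6 against 4.09 and 3.68 FPKM in Cov cells (centred difference -0.98, SE 0.13, adjusted p = 0.00139). For TRAF5, an adaptor of tumour necrosis factor receptors, the values went from 8.01 and 6.36 to 9.66 and 8.25 FPKM in Ku cells and from 9.96 and 10.5 to 2.76 and 3.49 FPKM in Cov cells (centred difference -1.29). MICB, a stress-induced ligand of the NKG2D receptor, was at 20.5 and 14.9 FPKM with DMSO and 20.5 and 17.9 FPKM with 50 nM THZ1 in Ku cells, and at 39.7 and 42.1 against 15.8 and 16.6 FPKM in Cov cells (centred difference -0.96). Each of these fell in Cov cells by the within-line test. In Ku cells the groups overlapped for SLC20A1 and MICB, and the treated libraries lay above the DMSO libraries for P4HA2 and TRAF5. KLHL23 had a centred difference of -0.95, and the pseudogene CEP170P1 and NBPF24, rows that share sequence with close copies and are therefore uncertain, had -1.07 and -1.51. LIMS3L, also a duplicated gene, was at 18.1 and 14.7 FPKM with DMSO and 31.9 and 29.1 FPKM with 50 nM THZ1 in Ku cells, and at 6.91 and 8.94 against 4.24 and 5.78 FPKM in Cov cells, and its call (centred difference -0.99) was lost without replicate 1 of Ku or Cov THZ1 50 nM or replicate 2 of Cov DMSO, with values of -1.12 to -0.85 over the 12 fits.

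**Figure D3:**
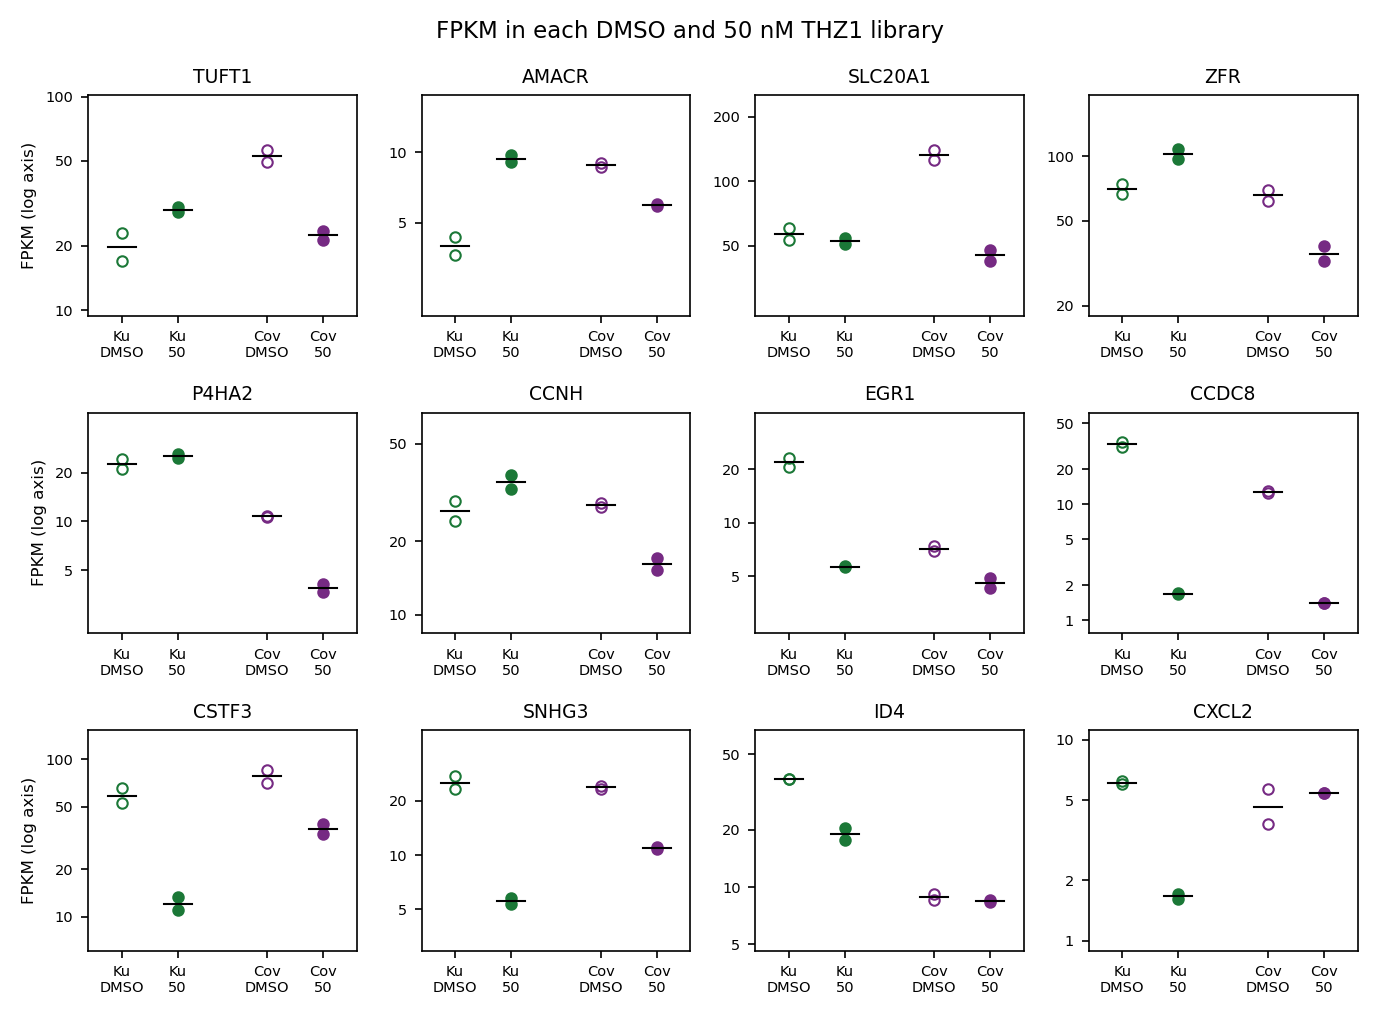
FPKM (y axis, log scale) of 12 genes in each of the 8 libraries, open points for DMSO and filled points for 50 nM THZ1, in Ku (green) and Cov (purple) cells, with a bar at the geometric mean of each pair. TUFT1, AMACR, ZFR and CCNH are higher with THZ1 in Ku and lower in Cov cells, EGR1, CCDC8, CSTF3, SNHG3 and ID4 are lowered further in Ku cells, and CXCL2 is lower with THZ1 in Ku cells while its Cov groups overlap.

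Opposite directions were not frequent. Over all active genes, 378 had every pair of Ku libraries above 0 and every pair of Cov libraries below 0, and 19 had the reverse, against 10537 with every pair below 0 in both lines and 46 with every pair above 0 in both. Among the 8247 genes above 5 FPKM in each line the numbers were 226, 3, 6333 and 14. With both changes beyond 0.5, 9 of the 8247 were up in Ku and down in Cov cells, TUFT1, ZFR and LIMS3L among them, and 3 were the reverse.

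On the other side stood genes with a larger fall in Ku cells. EGR1 (chr5:137801168-137804992, plus strand), an immediate early transcription factor, was at 23.2 and 20.7 FPKM with DMSO and 5.69 and 5.65 FPKM with 50 nM THZ1 in Ku cells, and at 7.40 and 6.96 against 4.89 and 4.32 FPKM in Cov cells (centred difference 1.69, SE 0.18, adjusted p = 0.000568). It fell in Ku cells by the within-line test, and in Cov cells its change of -0.55 was not called. At 250 nM the EGR1 change was -2.71 in Ku and 0.71 in Cov cells, so the sign differed between the lines. CCDC8 (chr19:46913586-46916821, minus strand), a gene of a cullin complex that bears on growth, went from 34.4 and 31.3 to 1.71 and 1.67 FPKM in Ku cells and from 12.5 and 13.1 to 1.42 and 1.40 FPKM in Cov cells. It fell in both lines, and further in Ku cells (centred difference 1.58, SE 0.12, adjusted p = 9.20e-05). CEBPD, a transcription factor of acute-phase genes, was measured at 53.9 and 48.6 FPKM with DMSO and 10.3 and 13.0 FPKM with 50 nM THZ1 in Ku cells, and at 31.9 and 32.5 against 14.8 and 14.05 FPKM in Cov cells (centred difference 1.40, adjusted p = 0.000767). IRF2BP1, a corepressor, had values of 39.2 and 39.6 with DMSO and 4.29 and 5.27 FPKM with THZ1 in Ku cells and 14.2 and 13.8 against 2.71 and 3.29 FPKM in Cov cells (centred difference 1.35). EGR1, CCDC8, CEBPD and IRF2BP1 have few exons, and the annotation gives CCDC8, CEBPD and IRF2BP1 only 1.

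Among longer genes, CSTF3 (chr11:33098734-33183917, minus strand), a subunit of the cleavage stimulation factor that acts at polyadenylation sites, was at 65.3 and 52.5 FPKM with DMSO and 13.3 and 10.9 FPKM with 50 nM THZ1 in Ku cells, and at 71.0 and 85.4 against 33.5 and 38.7 FPKM in Cov cells (centred difference 1.55, SE 0.24, adjusted p = 0.00355). CSTF3 fell in both lines, and further in Ku cells. The noncoding gene LINC00339 (chr1:22351051-22357716, plus strand) went from 17.6 and 17.6 to 0.811 and 0.881 FPKM in Ku cells and from 24.2 and 26.2 to 4.91 and 6.07 FPKM in Cov cells (centred difference 1.76, SE 0.19, adjusted p = 0.000605), and SNHG3, a host of small nucleolar RNAs, from 27.4 and 23.2 to 5.77 and 5.32 FPKM in Ku cells and from 23.4 and 24.2 to 10.9 and 11.1 FPKM in Cov cells (centred difference 1.41, SE 0.17, adjusted p = 0.000984). C9orf69 had a centred difference of 1.33 and FAM27A, a row with close copies, 1.58. Of the 24 leading genes, 22 kept their call in every fit that left out 1 library. The exceptions were LIMS3L, given above, and the microRNA row MIR1248, described with the small RNAs below.

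The next lists hold feedback and signalling genes, to be read against the 3.38% of all active genes called lower and the 8.1% called higher on the centred scale. Of 19 active immediate early and AP-1 genes, 7 were higher and 1 was lower in Cov cells on the centred scale, with the same counts among the 16 above 5 FPKM in each line. Their median centred difference was 0.18, beside 0.02 over all active genes. JUN, a subunit of AP-1, was at 38.6 and 36.4 FPKM with DMSO and 11.5 and 12.6 FPKM with 50 nM THZ1 in Ku cells, and at 66.9 and 72.1 against 34.7 and 32.5 FPKM in Cov cells (centred difference 0.99, SE 0.15, adjusted p = 0.00344), and the antiproliferative gene BTG2 went from 39.9 and 33.3 to 8.63 and 7.80 FPKM in Ku cells and from 10.5 and 10.7 to 3.05 and 3.28 FPKM in Cov cells (centred difference 0.99). Both fell in both lines, and further in Ku cells. The reverse gene was ZFP36L1, which encodes a protein that promotes decay of AU-rich RNAs, at 22.0 and 22.2 FPKM with DMSO and 20.6 and 18.8 FPKM with 50 nM THZ1 in Ku cells, and at 113 and 126 against 51.4 and 53.4 FPKM in Cov cells (centred difference -0.57). Its call was lost in 10 of the 12 fits that left out 1 library, all but those without a Ku 250 nM library, with values of -0.66 to -0.48.

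ID1, ID3 and ID4, inhibitors of DNA binding that BMP signals induce, were higher in Cov cells after centring. Within 12 TGF-beta and BMP feedback genes, 4 were higher and 1 was lower in Cov cells after centring, 3 and 1 among the 10 above 5 FPKM in each line. ID4 was at 37.2 and 37.1 FPKM with DMSO and 20.4 and 17.8 FPKM with 50 nM THZ1 in Ku cells, and at 8.57 and 9.17 against 8.52 and 8.35 FPKM in Cov cells (centred difference 1.31, SE 0.13, adjusted p = 0.000311), so its groups lay within 1 FPKM of each other in Cov cells and were well apart in Ku cells. ID3 fell from 250.3 and 251 to 90.4 and 102 FPKM in Ku cells and from 93.9 and 98.6 to 56.1 and 51.6 FPKM in Cov cells (centred difference 1.00) and ID1 went from 475 and 501 to 299 and 291 FPKM in Ku cells and from 154 and 177 to 142 and 138 FPKM in Cov cells (centred difference 0.94). ID2, of the same family, rose in Ku cells, at 18.8 and 15.9 FPKM with DMSO and 46.4 and 42.3 FPKM with THZ1, and had 13.7 and 16.1 against 19.8 and 19.5 FPKM in Cov cells (difference -0.93, SE 0.15, adjusted p = 0.00229). After centring the ID2 difference was -0.48 (adjusted p = 0.0749). BAMBI, a decoy receptor of the pathway, had a centred difference of -0.56, and that call was lost in each of the 8 fits without a DMSO or 50 nM library, with values of -0.65 to -0.48 over the 12.

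The chemokine genes CXCL1, CXCL2 and CXCL3 were also higher in Cov cells after centring. CXCL8, CCL2 and CCL20, the other chemokine genes of the NF-kB list, were not called. The median centred difference of the whole list was -0.04, beside 0.02 over all active genes. CXCL2 was at 6.22 and 6.06 FPKM with DMSO and 1.72 and 1.61 FPKM with 50 nM THZ1 in Ku cells, and at 5.70 and 3.80 against 5.45 and 5.44 FPKM in Cov cells (centred difference 2.06, SE 0.25, adjusted p = 0.000984), and its Cov groups overlapped. CXCL1 went from 45.2 and 37.9 to 11.8 and 9.11 FPKM in Ku cells and from 25.9 and 26.5 to 9.60 and 13.1 FPKM in Cov cells (centred difference 1.20) and CXCL3 from 2.46 and 2.49 to 1.46 and 1.83 FPKM in Ku cells and from 2.006 and 2.82 to 3.31 and 5.16 FPKM in Cov cells (centred difference 1.45). At 250 nM the changes in Cov cells were -0.72 for CXCL1, 1.46 for CXCL2 and 1.51 for CXCL3, beside -1.47, -1.02 and 0.22 in Ku cells. BIRC3, an inhibitor of apoptosis under the same factor, was lower in Cov cells (1.04 and 0.798 FPKM with DMSO and 0.389 and 0.302 FPKM with 50 nM THZ1 in Ku cells, and at 24.2 and 27.2 against 4.66 and 6.16 FPKM in Cov cells, centred difference -1.10), but its Ku level was near or below 1 FPKM. These were the 3 higher and 1 lower of 22 NF-kB target and feedback genes on the centred scale. Among 16 above 5 FPKM in each line the counts were 1 and 0 (2 lower at an unadjusted p under 0.05).

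Of 18 ERK feedback genes, 3 were lower and 1 higher on the centred scale, and among the 10 above 5 FPKM in each line 3 were lower and none higher (0 at an unadjusted p under 0.05). EPHA2, a receptor tyrosine kinase, was at 170.3 and 162 FPKM with DMSO and 134 and 139.8 FPKM with 50 nM THZ1 in Ku cells, and at 185 and 199 against 75.8 and 73.3 FPKM in Cov cells (centred difference -0.62, SE 0.12, adjusted p = 0.0112), a call lost without replicate 2 of Ku or Cov THZ1 50 nM (values of -0.71 to -0.55 over the 12 fits). ETV5, a transcription factor induced by ERK, went from 48.4 and 42.5 to 32.8 and 28.6 FPKM in Ku cells and from 41.2 and 44.7 to 13.2 and 14.8 FPKM in Cov cells and DUSP5, a phosphatase of ERK, from 27.9 and 22.6 to 22.2 and 21.7 FPKM in Ku cells and from 53.5 and 58.3 to 22.6 and 23.9 FPKM in Cov cells. Their centred differences were -0.55 and -0.59, and the ETV5 call was lost without Ku DMSO 2, Ku 50 nM 1, Cov DMSO 1, Cov DMSO 2, Cov 50 nM 1 or Cov 50 nM 2, values of -0.58 to -0.51, while the DUSP5 call was lost without Ku DMSO 2, Ku 50 nM 1, Ku 50 nM 2, Ku 250 nM 1, Ku 250 nM 2, Cov DMSO 1, Cov DMSO 2, Cov 50 nM 1 or Cov 50 nM 2, values of -0.64 to -0.53. In the YAP and TEAD list, AMOTL2 was the 1 gene of 14 that was called (centred difference -0.59, lost without Ku DMSO 1, Ku 50 nM 2, Cov DMSO 1, Cov DMSO 2, Cov 50 nM 1 or Cov 50 nM 2, values of -0.63 to -0.53), while CTGF (centred difference 0.28) and CYR61 (0.02), abundant targets, were not. Of 13 Notch pathway genes, 5 were higher after centring, but only 1 of 6 above 5 FPKM in each line. HEY2, a repressor that Notch induces, went from 7.39 and 6.34 to 2.30 and 2.53 FPKM in Ku cells and from 0.182 and 0.209 to 0.0868 and 0.155 FPKM in Cov cells (centred difference 1.56) and was at the edge of detection in Cov cells. NRARP, a feedback inhibitor of Notch, was at 4.19 and 3.95 FPKM with DMSO and 4.36 and 3.17 FPKM with 50 nM THZ1 in Ku cells, and at 10.3 and 10.6 against 12.4 and 13.8 FPKM in Cov cells (centred difference 0.85, lost without Cov DMSO 2, value 0.80). KLF2 and KLF4 were lower and KLF15 was higher among 13 KLF factors after centring, and each was below 1 FPKM in every library of one of the lines. KLF4 (centred difference -0.57) lost its call in 11 of the 12 fits that left out 1 library, all but the one without Cov 50 nM 2, and KLF2 (centred difference -0.58) was lost without Ku 50 nM 2, value -0.52.

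On the deposited scale 31 of 43 S phase genes, which act in DNA replication, were lower in Cov cells (72.1%, beside 38.8% of all active genes) and 1 was higher, with median changes of -0.42 in Ku and -1.11 in Cov cells. Their median centred difference was -0.24, and 4 were called lower after centring (9.30%, beside 3.38% of all active genes). The 3 of these with the largest differences follow. EXO1, a nuclease of mismatch repair and recombination, was at 24.7 and 19.6 FPKM with DMSO and 11.7 and 10.3 FPKM with 50 nM THZ1 in Ku cells, and at 28.0 and 31.9 against 5.60 and 6.21 FPKM in Cov cells (centred difference -0.77, SE 0.19, adjusted p = 0.0257). CDC6, which loads the replicative helicase, went from 51.4 and 41.7 to 38.1 and 33.2 FPKM in Ku cells and from 49.9 and 55.7 to 17.5 and 19.98 FPKM in Cov cells (centred difference -0.62), and POLD3, a subunit of DNA polymerase delta, from 25.2 and 20.3 to 11.4 and 11.4 FPKM in Ku cells and from 57.0 and 66.0 to 14.2 and 15.3 FPKM in Cov cells (centred difference -0.60). These calls were near the threshold. The EXO1 call was lost without Ku 50 nM 1, Ku 50 nM 2, Cov DMSO 1, Cov DMSO 2, Cov 50 nM 1 or Cov 50 nM 2, values of -0.81 to -0.74. Those of CDC6 and POLD3 were each lost in 11 of the 12 fits, all but the one without Ku DMSO 1 (values of -0.69 to -0.56 and -0.67 to -0.53). CCNE1, the G1/S cyclin, belongs to the list of G1 genes and not to the S phase list. It held its call in all 12 fits, at 41.5 and 38.2 FPKM with DMSO and 36.7 and 35.4 FPKM with 50 nM THZ1 in Ku cells, and at 54.8 and 57.5 against 22.6 and 25.2 FPKM in Cov cells (centred difference -0.61, SE 0.12, adjusted p = 0.00990). The 1 S phase gene higher in Cov cells was E2F8, a transcription factor of the E2F family, which dropped from 12.6 and 11.98 to 3.71 and 3.26 FPKM in Ku cells and was at 0.0890 to 0.110 FPKM in the Cov DMSO and 50 nM libraries. Its difference is thus a fall in Ku cells alone. In the list of 25 G1 cyclins, CDKs and inhibitors, 2 were lower and 3 higher after centring. Of all active genes, 3.38% were lower and 8.1% higher on that scale.

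Mitotic genes were called about as often as all active genes on the centred scale. Of 54 G2/M phase genes, 28 were lower on the deposited scale (51.9%, beside 38.8% of all active genes), and after centring 5 were higher (9.26%, beside 8.1%) and 1 was lower (1.85%, beside 3.38%). CDC20, an activator of the anaphase-promoting complex, went from 236 and 221 to 85.0 and 81.6 FPKM in Ku cells and from 308 and 332 to 141 and 135 FPKM in Cov cells (centred difference 0.69), and RANGAP1, which acts on the Ran GTPase, from 59.7 and 53.9 to 18.6 and 17.6 FPKM in Ku cells and from 85.2 and 90.4 to 39.5 and 36.7 FPKM in Cov cells (centred difference 0.86). HJURP, the chaperone of the centromeric histone, was the lower one (centred difference -0.51), a call lost without Ku DMSO 1, Ku DMSO 2, Ku 50 nM 1, Ku 50 nM 2, Ku 250 nM 1, Ku 250 nM 2, Cov DMSO 1, Cov DMSO 2 or Cov 50 nM 1, values of -0.55 to -0.45. Among 32 homologous recombination and Fanconi genes, 15 were lower on the deposited scale (46.9%), and after centring EXO1 was lower and BRCA1, FANCF and SLX4 were higher. FANCF, of the Fanconi core complex, went from 6.91 and 6.79 to 0.625 and 0.624 FPKM in Ku cells and from 4.89 and 4.89 to 0.513 and 0.694 FPKM in Cov cells (centred difference 0.84, SE 0.13, adjusted p = 0.00345). SLX4, a scaffold of nucleases, had a centred difference of 0.77. With a pseudocount of 0.1 neither FANCF (adjusted p = 0.13, limma) nor SLX4 (adjusted p = 0.288, limma) was called. For 19 checkpoint genes, 11 were lower on the deposited scale (57.9%) and limma called none after centring (5 at an unadjusted p under 0.05).

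Long-lived RNAs for the basic machinery of the cell also showed the shift. The 84 cytoplasmic ribosomal protein genes had a median change of -0.04 in Ku and -0.54 in Cov cells, and 46 were called lower on the deposited scale (54.8%, beside 38.8% of all active genes). RPS18 was at 6311 and 5969.6 FPKM with DMSO and 6307 and 6235 FPKM with 50 nM THZ1 in Ku cells, and at 7897 and 9377 against 6009 and 6258 FPKM in Cov cells. Its Ku libraries overlapped and its Cov libraries did not (difference -0.52, SE 0.13, adjusted p = 0.00957). Medians were -0.09 and -0.55 for 78 respiratory chain and ATP synthase genes (38 lower, 48.7%), -0.10 and -0.57 for 19 glycolytic enzymes (10 lower, 52.6%), and -0.15 and -0.64 for 37 proteasome subunits (17 lower, 45.9%). GAPDH, a glycolytic enzyme often taken as a reference, was at 4494 and 4305 FPKM with DMSO and 4429 and 4517 FPKM with 50 nM THZ1 in Ku cells, and at 7828 and 8944 against 6164 and 5921 FPKM in Cov cells. None of the last 3 lists had a centred call by limma (4, 2 and 2 genes at an unadjusted p under 0.05), and the ribosomal list had 1, RPL39L, which was higher in Cov cells (0.64, lost without Ku DMSO 2, Ku 50 nM 2, Cov DMSO 1, Cov DMSO 2 or Cov 50 nM 2, values of 0.58 to 0.65). On the deposited scale these groups were lower in Cov cells by about as much as the median gene. With libraries scaled to equal medians that difference is removed by construction.

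Genes of translation and RNA processing lay on both sides of the 38.8% of all active genes called lower. Lower on the deposited scale were 21 of 44 initiation factors (47.7%), 14 of 20 aminoacyl-tRNA synthetases (70.0%), 16 of 50 splicing factors and hnRNPs (32.0%), and 14 of 39 ribosome biogenesis factors (35.9%). After centring limma called none in the first 3 (3, 2 and 10 at an unadjusted p under 0.05) and 1 in the fourth, PPAN, a biogenesis factor that went from 40.1 and 37.7 to 5.38 and 4.93 FPKM in Ku cells and from 31.2 and 36.8 to 6.72 and 5.83 FPKM in Cov cells (centred difference 0.88).

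Stress pathways were taken one by one. Of 24 heat shock genes, 17 were lower on the deposited scale (70.8%, beside 38.8% of all active genes), with median changes of -0.14 in Ku and -0.78 in Cov cells, and none passed after centring (5 at an unadjusted p under 0.05, limma). HSPA8, the constitutive cytosolic chaperone, dropped from 1967 and 1743 to 1021 and 969 FPKM in Ku cells and from 1278 and 1419 to 386 and 426 FPKM in Cov cells (difference -0.83, SE 0.12, adjusted p = 0.00152). Within the hypoxia list of 21 genes, 3 were lower (14.3%, beside 3.38%) and 2 higher (9.52%, beside 8.1%) after centring, and all that were lower were above 5 FPKM in each line. NDRG1 was at 118 and 107 FPKM with DMSO and 147 and 148 FPKM with 50 nM THZ1 in Ku cells, and at 39.7 and 44.3 against 24.3 and 28.0 FPKM in Cov cells (centred difference -0.60, SE 0.13, adjusted p = 0.0141), a call lost without replicate 2 of Ku THZ1 50 nM (difference then -0.55). EGLN3, a prolyl hydroxylase that marks hypoxia-inducible factor, went from 11.1 and 9.16 to 13.1 and 12.5 FPKM in Ku cells and from 7.90 and 8.78 to 3.76 and 4.72 FPKM in Cov cells (centred difference -0.70, lost without Ku DMSO 2, Ku 50 nM 1, Ku 50 nM 2, Cov DMSO 1, Cov DMSO 2 or Cov 50 nM 1, values of -0.72 to -0.62), and P4HA2 was described above. All 3 were higher in both treated than in both DMSO libraries of Ku cells.

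In the ATF4 stress response, 3 of 20 genes were higher (15.0%, beside 8.1%) and 1 was lower (5.00%, beside 3.38%) on the centred scale. CEBPB, a transcription factor, was at 39.5 and 36.7 FPKM with DMSO and 10.8 and 10.96 FPKM with 50 nM THZ1 in Ku cells, and at 31.1 and 30.8 against 13.7 and 13.5 FPKM in Cov cells (centred difference 1.04, SE 0.12, adjusted p = 0.000944), and DDIT3, the stress factor CHOP, went from 19.02 and 15.98 to 1.52 and 2.26 FPKM in Ku cells and from 54.3 and 58.0 to 12.9 and 10.5 FPKM in Cov cells (centred difference 0.96, lost without Ku DMSO 1, Ku DMSO 2, Ku 50 nM 1, Cov DMSO 1, Cov DMSO 2 or Cov 50 nM 1, values of 0.72 to 1.00). PPP1R15A, which helps dephosphorylate eIF2-alpha, was lower in Cov cells (from 20.1 and 19.3 to 10.4 and 10.5 FPKM in Ku cells and from 38.2 and 40.9 to 10.2 and 8.30 FPKM in Cov cells, centred difference -0.68, lost without Ku 50 nM 2 or Cov 50 nM 2, values of -0.63 to -0.50). Among cholesterol synthesis genes, INSIG2, which holds back sterol synthesis, was lower in Cov cells after centring, at 4.31 and 4.01 FPKM with DMSO and 2.32 and 2.65 FPKM with 50 nM THZ1 in Ku cells, and at 18.8 and 20.8 against 5.43 and 5.95 FPKM in Cov cells (centred difference -0.62). The INSIG2 call was lost without Ku 50 nM 2, Cov DMSO 2 or Cov 50 nM 1, values of -0.61 to -0.50. For 20 NRF2 antioxidant genes, 2 were higher (10.0%, beside 8.1%), OSGIN1 (centred difference 0.70, lost without Ku 50 nM 1, Cov DMSO 1, Cov DMSO 2 or Cov 50 nM 1, values of 0.54 to 0.70) and HMOX1 (centred difference 0.59, lost without Ku DMSO 1, Ku DMSO 2, Ku 50 nM 1, Ku 50 nM 2, Ku 250 nM 1, Ku 250 nM 2, Cov DMSO 1, Cov 50 nM 1 or Cov 50 nM 2, values of 0.51 to 0.62).

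Over all active members, interferon response genes had the lowest median difference of the lists, and the lines did not start alike. On the deposited scale 22 of 32 were lower in Cov cells (68.8%, beside 38.8% of all active genes, median difference -0.74), and 5 were lower after centring (15.6%, beside 3.38%). OAS2, an antiviral synthetase, was at 0.165 and 0.121 FPKM with DMSO and 0.108 and 0.103 FPKM with 50 nM THZ1 in Ku cells, and at 51.4 and 53.7 against 13.7 and 16.6 FPKM in Cov cells, and XAF1 at 0.465 and 0.238 FPKM with DMSO and 0.210 and 0.220 FPKM with 50 nM THZ1 in Ku cells, and at 16.9 and 17.4 against 2.85 and 3.87 FPKM in Cov cells. Both were near 0 in Ku cells with either treatment, so only Cov cells had RNA to lose. Of the 19 members above 5 FPKM in each line limma called none after centring (2 at an unadjusted p under 0.05), and their median difference was -0.52, beside -0.48 for all 8247.

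Of 18 serous lineage transcription factors, 5 were higher (27.8%, beside 8.1%) and 1 was lower (5.56%, beside 3.38%) on the centred scale, 2 and 1 of the 12 above 5 FPKM in each line. SOX9 went from 14.04 and 13.2 to 6.42 and 6.00 FPKM in Ku cells and from 7.43 and 7.20 to 4.85 and 4.72 FPKM in Cov cells (centred difference 0.95, SE 0.16, adjusted p = 0.00478). GATA6 was the lower gene (from 6.58 and 6.32 to 5.35 and 5.26 FPKM in Ku cells and from 15.6 and 17.5 to 6.37 and 6.38 FPKM in Cov cells, centred difference -0.55, lost without Ku DMSO 1, Ku 50 nM 2, Cov DMSO 2 or Cov 50 nM 2, values of -0.53 to -0.50). PAX8 and SOX17 fell in both lines. PAX8 went from 140.0 and 132 to 42.5 and 41.0 FPKM in Ku cells and from 120.3 and 128 to 29.5 and 29.6 FPKM in Cov cells and was not called in the difference (centred 0.10, adjusted p = 0.653), and SOX17 went from 139 and 146 to 30.3 and 33.9 FPKM in Ku cells and from 113 and 121 to 34.3 and 32.2 FPKM in Cov cells and was called higher in Cov cells (centred 0.79, adjusted p = 0.00463). In the BCL2 family, 6 of 15 were lower on the deposited scale (40.0%, beside 38.8% of all active genes), and BIK and BMF, pro-apoptotic members that are scarce in Ku cells, after centring. The BMF call (centred difference -0.75) was lost without Ku DMSO 2, Ku 50 nM 1, Ku 250 nM 1, Ku 250 nM 2, Cov DMSO 1, Cov DMSO 2, Cov 50 nM 1, Cov 250 nM 1 or Cov 250 nM 2, values of -0.75 to -0.62. Of 18 surface and secreted antigens, 10 were lower on the deposited scale (55.6%) and CLDN6, which was close to 0 in Ku cells, after centring. The CLDN6 call (centred difference -0.60) was lost without Ku DMSO 1, Ku 50 nM 2, Cov DMSO 1 or Cov DMSO 2, values of -0.61 to -0.48. With libraries scaled to equal median FPKM the centred difference of CLDN6 changed sign, to 0.0224. For 5 ABC efflux transporters the counts were 2 (40.0%) and none (limma, 0 at an unadjusted p under 0.05).

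**Figure D4:**
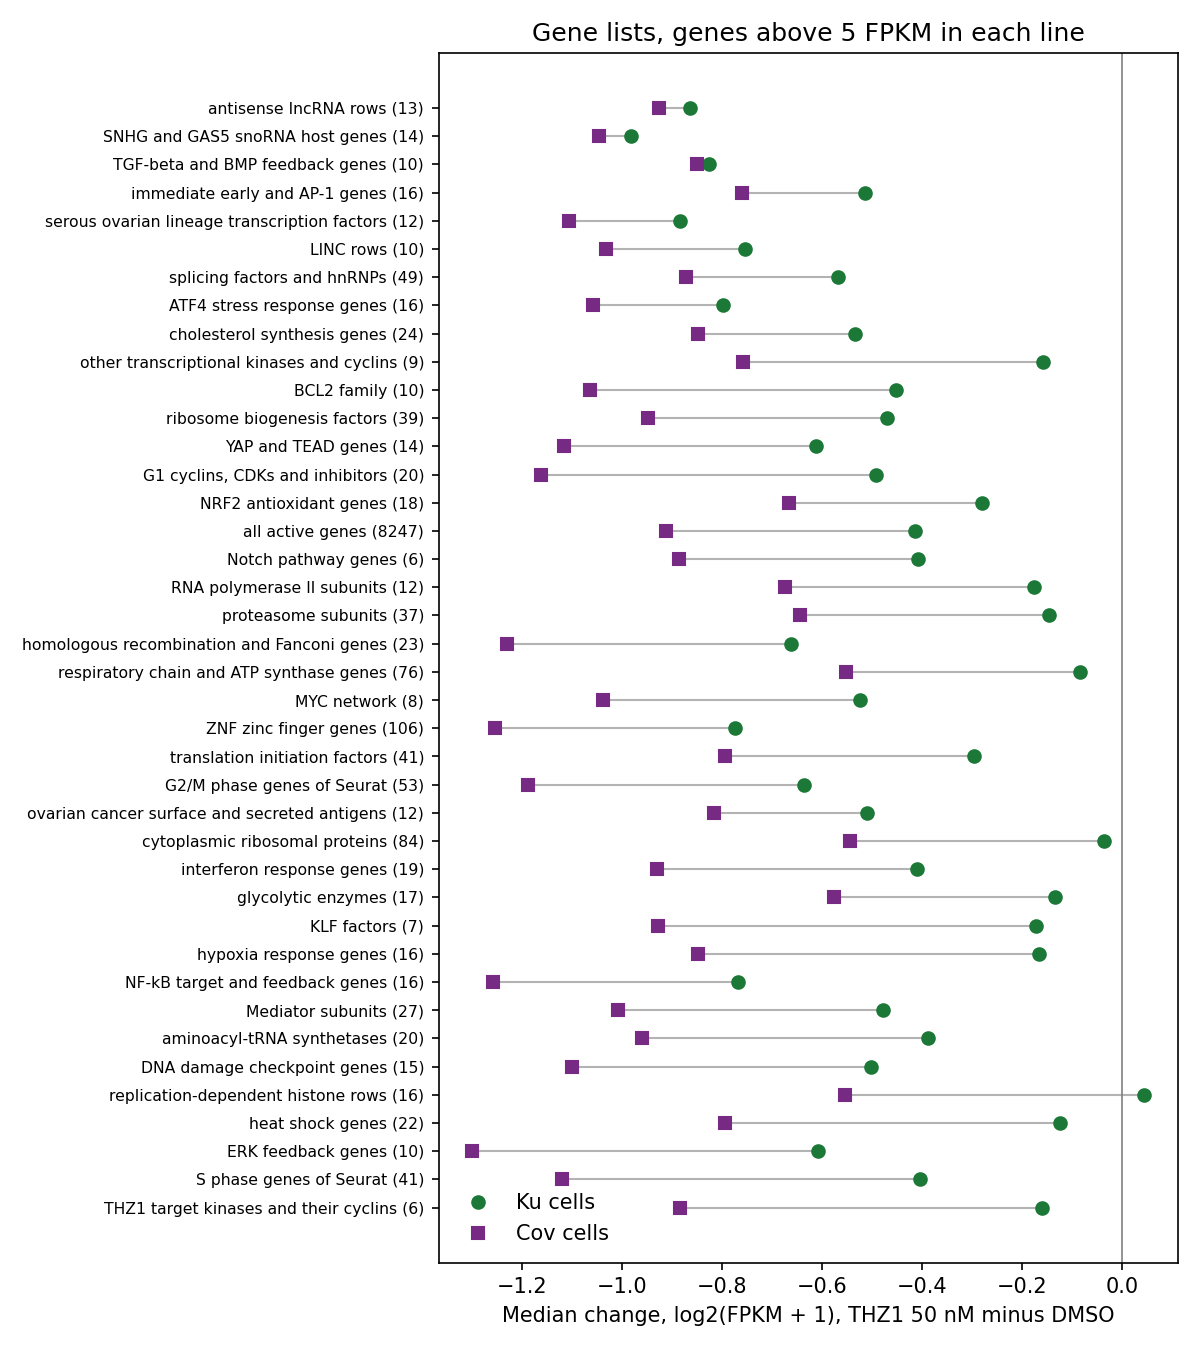
Median change with 50 nM THZ1 (x axis, log2(FPKM + 1)) in Ku (green circles) and Cov (purple squares) cells for 39 gene lists and all active genes, over members above 5 FPKM in each line (number in brackets), ordered by the median difference; lists with fewer than 5 such members and the small RNA rows are left out. Cov cells lie to the left throughout, and the median difference runs from -0.13 for antisense rows at the top to -0.72 for the THZ1 target kinases at the bottom.

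The median difference was -0.20 over 351 lncRNA genes and -0.44 over 12939 protein-coding genes. Of 15 snoRNA host genes, 4 were higher in Cov cells on the centred scale (26.7%, beside 8.1% of all active genes). None was lower, beside 3.38% of all active genes (limma, 0 lower at an unadjusted p under 0.05). SNHG9 was at 107 and 114 FPKM with DMSO and 83.9 and 96.4 FPKM with 50 nM THZ1 in Ku cells, and at 169 and 207 against 189 and 218 FPKM in Cov cells (centred difference 0.86, lost without Ku 50 nM 1, value 0.71). Among 136 antisense rows, 34 were higher (25.0%, beside 8.1%) and 3 lower (2.21%, beside 3.38%), with 3 and 0 of the 13 above 5 FPKM in each line. Of 45 LINC rows, 9 were higher and 3 lower, and LINC00673 had the most negative value (centred difference -1.81), at 0.975 and 1.26 FPKM with DMSO and 2.43 and 2.06 FPKM with 50 nM THZ1 in Ku cells, and at 12.3 and 14.05 against 3.65 and 3.38 FPKM in Cov cells. Over 455 ZNF genes, 198 were lower on the deposited scale (43.5%, beside 38.8% of all active genes), and 32 lower (7.03%, beside 3.38%) and 38 higher (8.35%, beside 8.1%) after centring. ZNF526 went from 13.0 and 11.7 to 1.46 and 1.11 FPKM in Ku cells and from 3.84 and 4.61 to 0.781 and 0.585 FPKM in Cov cells (centred difference 1.37). Replication-dependent histone rows, whose RNAs mostly lack the poly(A) tails that the libraries select, had 5 higher of 42 (11.9%, beside 8.1%). None was lower, beside 3.38% (limma, 3 lower at an unadjusted p under 0.05).

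Small RNA rows carried the extremes of the scale and some of them rested on 1 library. SNORD46 was at 148 and 127 FPKM with DMSO and 0.0983 and 0.0933 FPKM with 50 nM THZ1 in Ku cells, and at 0.114 and 0.123 against 0.0897 and 106 FPKM in Cov cells, so its Cov mean rests on 1 library. MIR1248 had 0.127 and 0.453 FPKM with DMSO and 0.107 and 111 FPKM with THZ1 in Ku cells, likewise 1 high library, and 133 and 57.0 against 0.0725 and 0.0815 FPKM in Cov cells. Its call was lost without either DMSO library of either line or either Cov THZ1 50 nM library (values of -12.41 to -5.65 over the 12 fits). SNORA72 went from 71.8 and 20.1 to 0.0991 and 0.0934 FPKM in Ku cells and from 0.124 and 0.135 to 17.4 and 17.1 FPKM in Cov cells and MIR622 from 1029 and 1241 to 589.8 and 869 FPKM in Ku cells and from 306 and 275 to 784 and 493 FPKM in Cov cells, in both cases down in Ku and up in Cov libraries. In all, 4 of 149 snoRNA rows were lower (2.68%, beside 3.38% of all active genes) and 5 higher (3.36%, beside 8.1%) on the centred scale. Of 98 microRNA rows, 1 was lower and 1 higher (1.02% each). Such short features lie within host transcripts and are poorly kept by poly(A) selection, so the values do not measure the mature small RNAs.

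Few RNAs rose, and MGC12916 was the only one called as rising in both lines. NXF1, the mRNA export receptor, rose in Ku cells and was not called in Cov cells (from 55.3 and 49.3 to 111 and 104 FPKM in Ku cells and from 39.6 and 43.3 to 54.2 and 53.6 FPKM in Cov cells, changes of 1.03 and 0.37). The difference was called on the deposited scale (adjusted p = 0.00232) and not after centring (-0.21, adjusted p = 0.261). RBM15, an RNA-binding protein of the m6A writer complex, rose in Cov cells and was not called in Ku cells (from 8.93 and 7.44 to 14.2 and 13.6 FPKM in Ku cells and from 9.10 and 10.4 to 19.4 and 20.4 FPKM in Cov cells, difference 0.26, adjusted p = 0.245). On the centred scale RBM15 was called higher in Cov cells (0.71, adjusted p = 0.0340), a call lost without Ku DMSO 1, Ku 50 nM 1, Ku 50 nM 2, Cov DMSO 1, Cov DMSO 2, Cov 50 nM 1, Cov 50 nM 2, Cov 250 nM 1 or Cov 250 nM 2, values of 0.68 to 0.74. EID3, a subunit of the SMC5/6 complex, went in opposite directions in the lines. It was at 1.83 and 1.53 FPKM with DMSO and 0.966 and 0.608 FPKM with 50 nM THZ1 in Ku cells, and at 0.787 and 0.645 against 8.67 and 10.9 FPKM in Cov cells (centred difference 3.68, SE 0.18, adjusted p = 6.21e-06), and at 250 nM its change was 1.78 in Cov and -0.81 in Ku cells. TNFRSF10D, a decoy receptor for TRAIL, rose in Cov cells, 2.93 and 3.21 against 6.54 and 8.08 FPKM, and lay below 1 FPKM in Ku cells (centred difference 1.38). NNAT and MGC12916 were the largest rises in Ku cells outside the small RNAs (1.55 and 1.72), from 0.637 and 0.621 to 4.02 and 3.50 FPKM and from 1.92 and 2.25 to 10.2 and 8.22 FPKM, with centred differences of -0.84 and -0.75. The NNAT call was lost without Ku DMSO 1, Ku 50 nM 1, Cov DMSO 1, Cov DMSO 2 or Cov 50 nM 2, values of -0.85 to -0.70, and the MGC12916 call was lost without Ku DMSO 1, Ku 50 nM 1, Cov DMSO 1, Cov DMSO 2, Cov 50 nM 1 or Cov 50 nM 2, values of -0.83 to -0.59.

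The difference between the lines varied with gene structure. Positions come from the GENCODE annotation on GRCh37, which matched 13736 of the 14251 active genes (96.4%). Protein-coding genes with a span under 5 kb had a median difference of -0.26, and the median went through -0.37, -0.47 and -0.51 (50 to 100 kb) to -0.54 for spans of 100 to 300 kb, then -0.45 above 300 kb. From the shortest to the longest spans the median changes in Ku cells were -0.44, -0.47, -0.42, -0.40, -0.34 and -0.23, and those in Cov cells -0.71, -0.84, -0.90, -0.92, -0.88 and -0.69. By exon number it was -0.12 for the 232 single-exon genes and -0.53 for the 2043 genes with 20 or more exons. Across exon number the values moved in Ku cells, where the median change was -0.71 for single-exon genes and -0.34 for the genes with most exons, while Cov cells stayed at -0.89 and -0.88. Of the single-exon genes, 75 were higher and 7 lower on the centred scale, 32.3% and 3.02%, beside 7.69% and 3.47% of all protein-coding genes. The 995 higher protein-coding genes had a median span of 16722 bp and 6 exons and the 449 lower ones 46357 bp and 8 exons. These are descriptions across genes, which are not replicates, and level, RNA half-life and gene length were not separated.

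**Figure D5:**
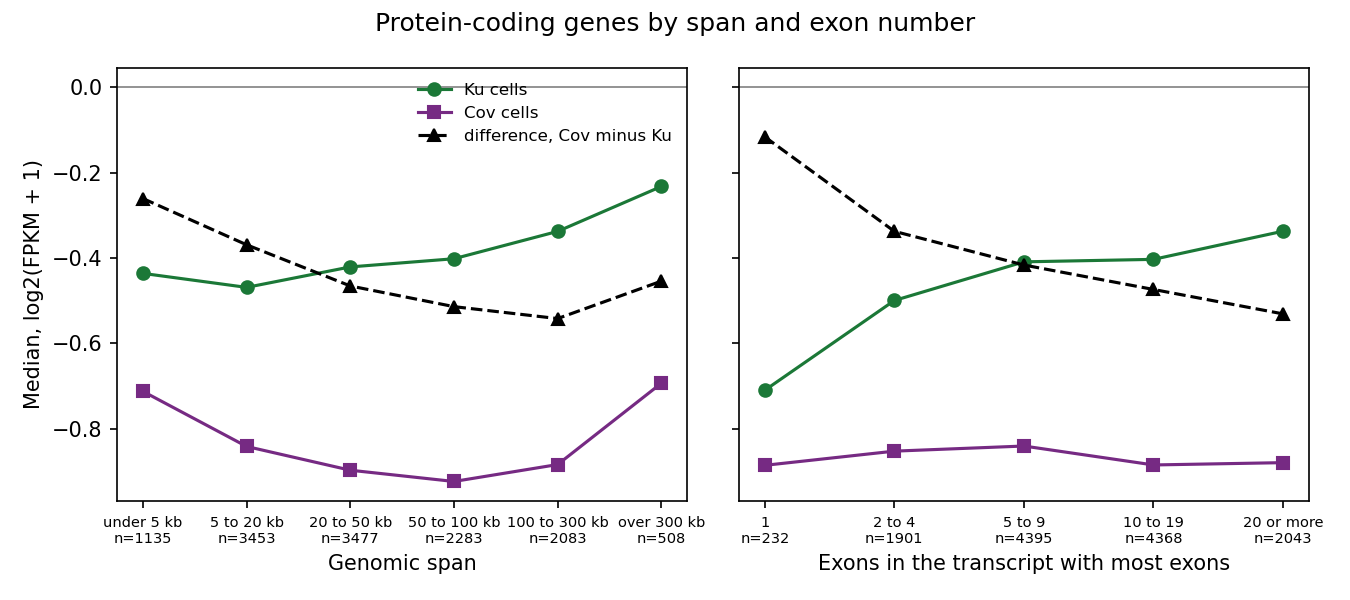
Median change with 50 nM THZ1 in Ku (green) and Cov (purple) cells and median difference between the lines (black, dashed), all in log2(FPKM + 1), for protein-coding genes in bins of genomic span (left) and of exon number (right), with the number of genes under each bin. The Cov line is level across exon number, and the Ku line runs from -0.71 for single-exon genes to -0.34 for genes with 20 or more exons.

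Promoters were searched for short motifs. In windows from 250 bases before to 50 bases after the annotated start of 13450 active genes, read on both strands, TATAAA was found in 5.63% of all, 9.09% of the lower and 8.99% of the higher genes on the centred scale. CACGTG, the E-box that MYC and MAX bind, was in 10.1%, 6.28% and 9.08%. TGACTCA, the letters of an AP-1 site, was in 2.83%, 5.19% and 2.78%, and TGACGTCA, those of a CRE, in 3.33%, 3.25% and 2.6%. GGGCGG, the GC box, was in 73.2%, 72.5% and 67.7%, and CCAAT in 35.7%, 32.5% and 36.2%. Such matches are letters in a window and say nothing of a factor at these genes.

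The lines shared much of their order of response. Across the 14251 active genes the changes in Ku and Cov cells had a Pearson's r of 0.475 and a Spearman's rho of 0.592, given as a description, since the genes of a library are not independent. Within genes called after centring, the 481 lower ones had median changes of -0.08 in Ku and -1.29 in Cov cells at 50 nM, and of -0.75 and -2.08 at 250 nM. For the 1155 higher ones the medians were -0.98 and -0.52 at 50 nM and -1.42 and -0.65 at 250 nM. The high dose shares its DMSO libraries with the low dose, so these values are set side by side only.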

How the data were processed

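RNA-seq of poly(A) RNA was made by the authors with a stranded kit and single-end reads from 2 replicates of each line and treatment, which the submitters call biological duplicates. Whether these were separate cultures is not given in the sources used here, so p-values measure the spread between replicates. Alignment by the authors was to hg19, with HISAT. The deposited FPKM came from cuffquant and cuffnorm, were normalized to ERCC spike-ins, and form 1 table per line. Versions are not given in the sources used here. FPKM are not counts, so depth is unknown, no counting interval is given, and the count test that the study names was not used. The most frequent value of a library lies between 0.0783 and 0.119 FPKM.

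Active genes (above 1 FPKM in at least 1 library) were transformed as log2(FPKM + 1), which understates changes of low genes, and modelled over 6 groups of 2 libraries (limma 3.58.1 on R 4.3.3, lmFit with contrasts.fit and trended eBayes). The contrast was tested two-sided with Benjamini-Hochberg adjustment over 14251 genes and called at an adjusted p under 0.05 and beyond 0.5. For the centred scale the median change of each line was subtracted from its 50 nM libraries. Changes within a line were called at an adjusted p under 0.001 and beyond 0.5, the thresholds of the study. An exact permutation test of 2 libraries against 2 cannot give a p below 0.333. Replicate numbers did not pair the libraries: deviations from the group mean correlated at 0.000345 (Ku) and 0.0282 (Cov) between DMSO and 50 nM.

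In simulated data with 200 changed of 14251 genes, limma recovered 76 of 100 genes changed by 1 and 97 of 100 changed by 2, with 3 false calls. With a shift of all Cov 50 nM values added, 6568 unchanged genes were called on the deposited scale and 4 on the centred scale.

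The members, gene lists, named-gene rule and tests were all chosen with earlier results of these data known. Named are MYC, MCL1, PVT1, MAX, CDK7, CDK12, CDK13, BRCA1 and BRCA2; the 12 lowest and 12 highest centred differences among called genes above a mean of 5 FPKM in each line whose pairs of libraries did not overlap; up to 3 called members a direction of each list, or its 2 most abundant; and up to 10 risers a line. PAX8 and SOX17 were named as markers. Cell cycle lists are those of Seurat 5.3.0. Symbols were matched to GENCODE directly (12757), through RefSeq synonyms (979) or not (515), and promoters were read with pysam 0.24.0. Figures used matplotlib 3.10.9 in Python 3.11.15. Alternatives were other pseudocounts, filters, scalings, centring, fits and thresholds, and each library left out. The result of 1 named gene is not reported here.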

Additional observations from a re-analysis of the deposited data

Results flagged for a closer look

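The response to 50 nM THZ1 differed between Ku and Cov cells by the test of the difference itself (limma, adjusted p under 0.05 and beyond 0.5) for 5524 genes lower and 337 higher in Cov cells on the deposited scale, and for 481 lower and 1155 higher on the centred scale. Among called genes above a mean of 5 FPKM in each line whose pairs of libraries did not overlap, a choice that fixes the separation of the lines, the 12 most negative centred differences were those of MIR1248 (-9.03), NBPF24 (-1.51), TUFT1 (-1.31), TRAF5 (-1.29), AMACR (-1.10), CEP170P1 (-1.07), LIMS3L (-0.99), SLC20A1 (-0.98), P4HA2 (-0.98), ZFR (-0.97), MICB (-0.96) and KLHL23 (-0.95). The 12 most positive of that choice were those of SNORD46 (10.69), SNORA72 (9.63), MIR622 (2.20), LINC00339 (1.76), EGR1 (1.69), FAM27A (1.58), CCDC8 (1.58), CSTF3 (1.55), SNHG3 (1.41), CEBPD (1.40), IRF2BP1 (1.35) and C9orf69 (1.33). What underlies these differences was not tested.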

How the results depend on the processing

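The median difference of -0.43 stayed negative in every fit but those that remove a shift common to a library: it was 0.022 after scaling to equal median FPKM and 0.0086 after median-of-ratios scaling, by construction. It was -0.14 with no minimum FPKM, which adds rows near 0. In the order lower and higher on the deposited, then lower and higher on the centred scale, counts were 5524, 337, 481 and 1155. They were 5244, 236, 131 and 429 with a pseudocount of 0.1, 4155, 107, 123 and 406 with a minimum FPKM of 10, 4935, 296, 974 and 1585 with no minimum, 4822, 130, 159 and 514 above a mean of 1 FPKM in each line, 419, 610, 477 and 563 with equal medians, 496, 685, 469 and 712 with median-of-ratios scaling, and 5243, 310, 285 and 860 in only the 8 DMSO and 50 nM libraries. Rescaling to equal median ERCC gave 4650, 379, 483 and 1134, with a median difference of -0.39. An adjusted p under 0.001 left 289, 50, 32 and 128, and a difference beyond 1 left 598, 83, 63 and 304. Above a mean of 5 FPKM in each line, chosen after seeing the data, they were 3802, 57, 58 and 269. Without small RNA rows, also chosen after seeing the data, they were 5723, 358, 592 and 1412. Leaving out 1 library gave 3629 to 6821, 278 to 439, 275 to 467 and 712 to 1139, with a median of -0.51 to -0.36. Beyond the shifts that follow from their construction, the cause of these changes was not tested.

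With the replicate number as a block the counts were 5496, 336, 416 and 1046. The numbers did not pair the libraries, so the block is an alternative only. Among named genes, 51 lost their centred call with a pseudocount of 0.1, and CLDN6 (0.0224) and MAGI2-AS3 (0.00228) changed sign on scaling to equal median FPKM. With no counts, depth cannot be stated, and 2 libraries a group limit the precision.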
